A study of Homo sapiens with 14 samples.

Results

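The secretory machinery of human pancreatic cells was followed through 38 genes of regulated exocytosis and synaptic-type vesicles, chosen by name from the 60624 gene identifiers listed for each library. All 38 matched exactly 1 identifier. There were 5 plasma-membrane Q-SNAREs, 3 vesicle R-SNAREs, 4 genes of the SM (Sec1/Munc18) and priming proteins, 8 synaptotagmins and complexins, 6 Rab GTPases with 1 Rab effector, 3 active-zone scaffolds, and 8 vesicle membrane, cargo and granule proteins. RNA sequencing covered 14 libraries in 9 groups. All came from the MEL1 human embryonic stem cell line, named in the methods as an INS reporter line with GFP in place of an insulin allele. The hPSC (undifferentiated cells on mouse feeder cells), DE (definitive endoderm), PP2 (pancreatic progenitors reached by stepwise induction) and SC-β (β-like cells obtained with no expansion step) groups had 1 library each and formed batch 1. Batch 2 held 2 libraries each of ePP-P9 and ePP-P21, the expandable pancreatic progenitors at passages 9 and 21, and of ePP-β, the β-like cells made from them. The ePPs were grown on feeder cells with EGF, bFGF, B27, an inhibitor of the TGF-β receptor and 1 μM of the BET bromodomain inhibitor I-BET151. Batch 3 held 2 libraries each of pancreatic progenitors kept for 7 days in the ePP basal medium with DMSO, the solvent, or with 1 μM I-BET151. The labels do not say that replicate libraries came from separate cultures, so p-values measure only the spread between these libraries, which may be technical.

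Secretory cells release their granules when calcium enters. A Rab GTPase and its effectors bring the granule to the plasma membrane, SM and Munc13-type proteins prime it, and a bundle of a vesicle R-SNARE with plasma-membrane Q-SNAREs drives fusion, timed by synaptotagmins and complexins. β cells share this machinery with neurons and with other endocrine cells, and they also carry granule-membrane proteins such as PTPRN and PTPRN2. Cells without regulated release use related, broadly expressed genes (SNAP23, VAMP3, VAMP8, STX3 and STX4) for constitutive and other fusion steps.

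Values are in TPM, the share of transcripts that a gene takes in a library after correction for length, so levels of different genes can be set side by side within a library. TPM keeps no record of read depth, and all 37 mitochondrial genes stood at 0 in every library, so a gene at exactly 0 is described only as listed at 0. Between 14982 and 17578 genes per library reached 1 TPM. Labels were checked against marker genes. POU5F1 was at 3401 TPM in hPSC, SOX17 at 1139.8 TPM in DE and PDX1 at 251 TPM in PP2, and the pancreatic progenitor list of 5 genes was at 1 TPM or more in all 4 ePP libraries. INS stood at 10916 and 17374 TPM in the ePP-β libraries and 20658 TPM in SC-β. GCG, the glucagon gene of α cells, stood at 14107 and 13359.5 TPM in the ePP-β libraries and 74281 TPM in SC-β. Other genes of the β-cell list differed in both directions. IAPP, a defining β-cell gene, reached only 0.463 and 0.538 TPM in ePP-β, against 9.62 TPM in SC-β. G6PC2 was lower in ePP-β too (9.04 and 6.59 TPM, SC-β 153 TPM). SLC30A8 (522 and 468 TPM, SC-β 72.1 TPM) and PCSK1 (180 and 159 TPM, SC-β 11.1 TPM) were higher in ePP-β. So was MAFA, at a low level (2.05 and 1.75 TPM, SC-β 0.864 TPM). For ABCC8 the ePP-β libraries (73.6 and 101 TPM) lay on either side of SC-β (99.3 TPM). In bulk RNA a change in the number of cells of a type and a change in RNA per cell cannot be told apart.

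More of the exocytosis genes were detected in both β-like groups than in ePPs, although SNAP23, STX3, STX4, VAMP3 and STXBP2 stood above 20 TPM in every ePP library. Between 17 and 20 of the 38 genes reached 1 TPM in the 4 ePP libraries, against 35 and 36 in the ePP-β libraries and 34 in SC-β. At 10 TPM the counts were 8 or 9 in ePP, 29 in each ePP-β library and 32 in SC-β. Their summed level ran from 377 to 444 TPM in ePP, and was 2605 and 2592 TPM in ePP-β and 2551 TPM in SC-β. Without STMN2 the sums were 1549 and 1518 TPM in ePP-β and 2382 TPM in SC-β. VAMP3, a broadly expressed R-SNARE, led in every ePP library (93.4 to 122 TPM), STMN2 led in ePP-β and PTPRN led in SC-β (614 TPM).

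**Figure D1:**
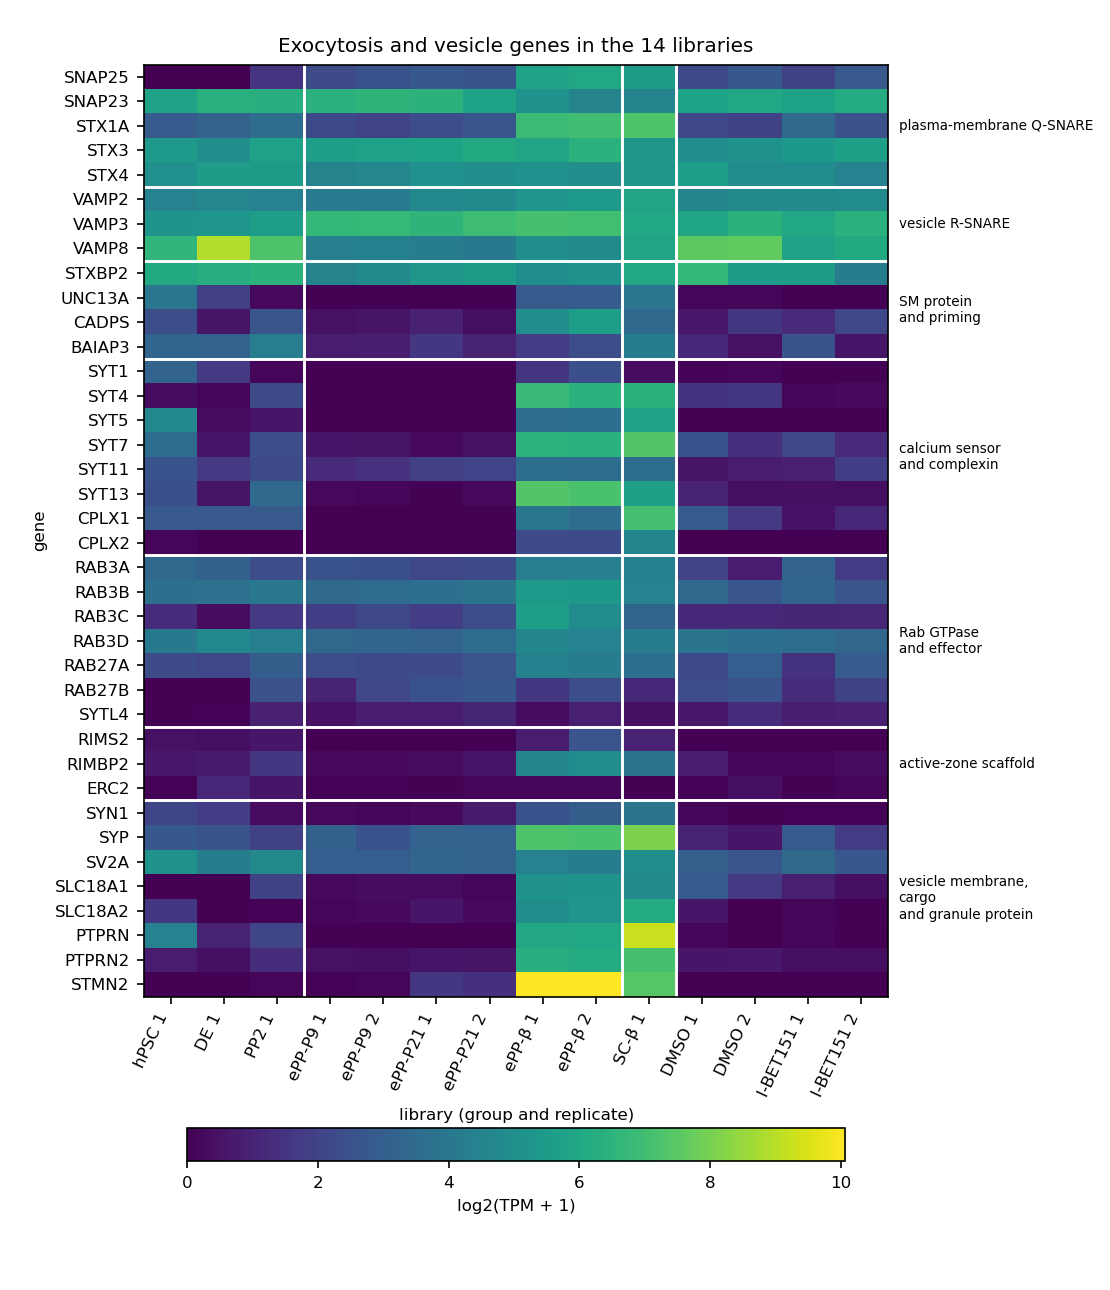
Level of the 38 genes in the 14 libraries, as log2(TPM + 1) by colour, with genes in rows by role and libraries in columns. White lines part the roles, and in the columns they part the early stages, the ePP and ePP-β libraries, SC-β, and the DMSO and I-BET151 libraries. Most rows are dark in the 4 ePP columns and bright in the ePP-β and SC-β columns, while SNAP23, STX3, STX4, VAMP2, VAMP3 and STXBP2 are bright in all columns.

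The comparison of ePP-β with ePP asked what changes when expanded progenitors are differentiated to β-like cells. Of the 38 genes, 27 were called higher, 1 was called lower, 7 were tested and not called, and 3 (SYTL4, RIMS2 and ERC2) did not pass the filter of 1 TPM in at least 2 of the 6 libraries. A call required a Benjamini-Hochberg adjusted p under 0.05 in limma and a log2 fold change beyond 1. Of all 18076 genes tested, 17.9% were called higher and 9.86% lower, with 3237 and 1783 genes, and with quantile normalization these were 2592 and 2866. Over the 38 genes, with the 3 under the filter included, the median log2 difference was 2.13. It was -0.03 over all genes past the filter. Of the 27 genes called higher, 16 had reached 1 TPM in fewer than 2 ePP libraries and passed the filter through ePP-β. All of these but BAIAP3 were under 1 TPM in every ePP library, so they had to be higher in ePP-β. The median of 2.13 includes these genes and is thus in part fixed by the filter. The other 19 genes tested had reached 1 TPM in at least 2 ePP libraries, and of these 11 were higher, 1 was lower and 7 were not called. The matching share over all genes that passed through ePP libraries was not counted, and the 17.9% above covers all genes tested. With ePP-β replicate 1 left out 12 genes were called higher and with ePP-β replicate 2 left out 11, since a gene seen in ePP-β alone then cannot reach the filter.

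**Figure D2:**
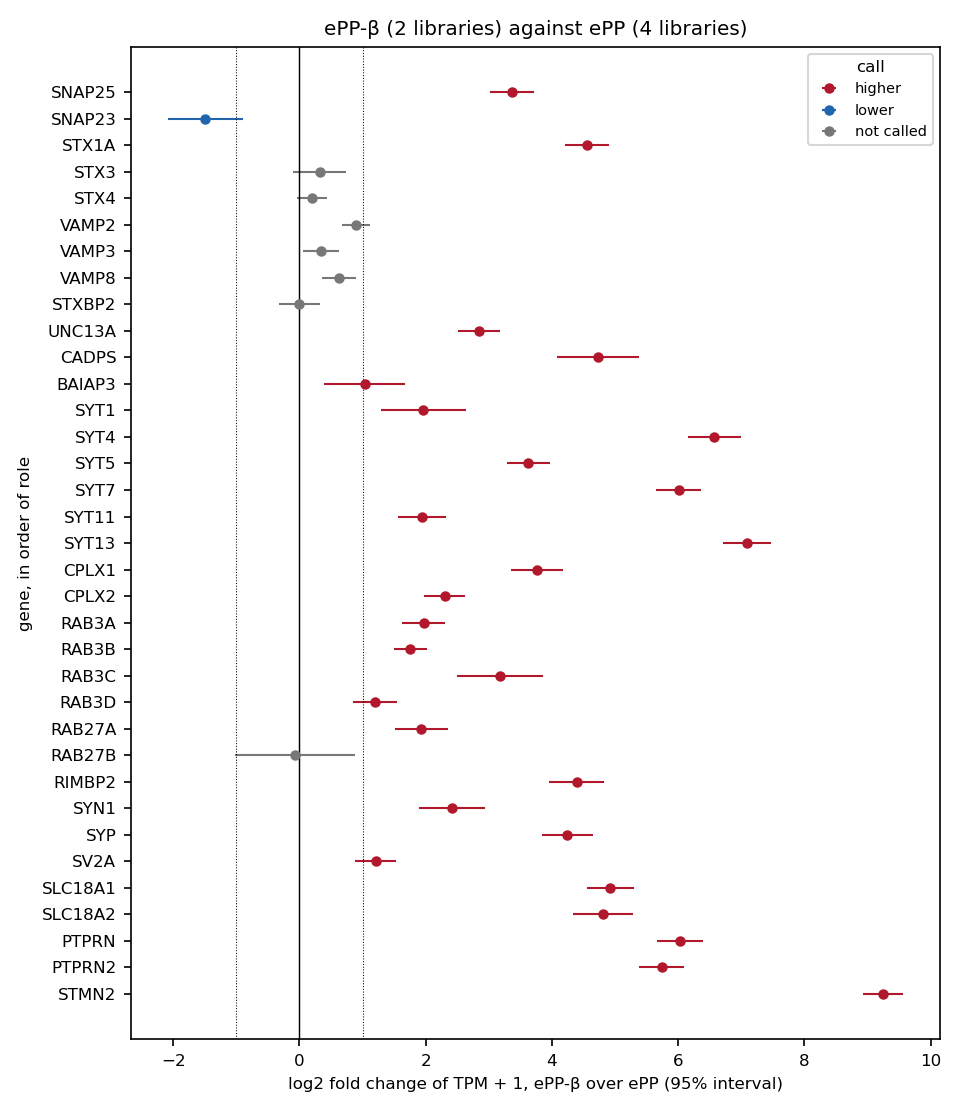
Log2 fold change of TPM + 1 in ePP-β over ePP for the 35 genes that passed the filter, as points with 95% intervals from limma, in order of role from top to bottom. Red points were called higher, the blue point (SNAP23) was called lower and grey points were not called. Dotted lines mark the threshold of 1 on either side. STMN2 lies farthest to the right at 9.25, and all 8 synaptotagmins and complexins lie beyond 1.

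Among the Q-SNAREs, which sit on the plasma membrane, the neuronal and endocrine forms rose and SNAP23, the broadly expressed relative of SNAP25, fell. SNAP25 (chr20:10172395-10308258, GRCh38) was at 4.05 and 4.86 TPM at passage 9, at 5.92 and 4.91 TPM at passage 21, and 55.5 and 64.7 TPM in ePP-β, a log2 fold change of 3.37 ± 0.14 (SE; adjusted p = 1.99e-05). SNAP23 (chr15:42491233-42545356) was at 86.3, 92.2, 88.2 and 56.0 TPM in the 4 ePP libraries and at 34.7 and 21.7 TPM in ePP-β, and it fell by 1.49 ± 0.24 on the log2 scale (adjusted p = 0.0028). The groups did not overlap for either gene, and SNAP25 took 4.48% to 8.05% of the summed TPM of the pair in ePP, 61.5% and 74.8% in ePP-β and 67.4% in SC-β. STX1A, the syntaxin of neuronal and granule exocytosis, was at 3.18 to 5.56 TPM in ePP and at 114 and 126 TPM in ePP-β (log2 fold change 4.56 ± 0.14, adjusted p = 8.69e-06). STX3 (47.3 to 68.7 TPM in ePP, 58.1 and 85.1 TPM in ePP-β) and STX4 (21.8 to 33.1 TPM in ePP, 33.1 and 30.1 TPM in ePP-β) overlapped between the groups. Their 95% intervals ran from -0.10 to 0.74 and from -0.03 to 0.44 on the log2 scale. STX1A made up 3.94% to 5.28% of the TPM of the 3 syntaxins in ePP, 55.6% and 52.2% in ePP-β and 66.7% in SC-β.

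None of the 3 R-SNAREs, which sit on the vesicle, was called. VAMP2, the main R-SNARE of neurons and insulin granules, was at 16.6, 17.5, 24.7 and 26.1 TPM in ePP and at 37.6 and 41.7 TPM in ePP-β, a log2 difference of 0.90 ± 0.09 (SE) with an adjusted p of 0.000465 in limma that stayed under the fold threshold. VAMP3 was at 93.4 to 122 TPM in ePP and at 142 and 129 TPM in ePP-β (0.34 ± 0.12, adjusted p = 0.0496). VAMP8, known for exocytosis in exocrine and epithelial cells, was at 16.0 to 20.3 TPM in ePP and at 31.7 and 27.2 TPM in ePP-β (0.63 ± 0.11, adjusted p = 0.00375). All 3 were higher in both ePP-β libraries than in any ePP library. Such separation was not counted over all genes tested, of which 62.2% had an unadjusted p under 0.05 in limma. VAMP3 remained the leading gene of these 3 R-SNAREs, with 68.5% to 74.4% of their summed TPM in ePP and 67.2% and 65.2% in ePP-β. In SC-β the shares of VAMP2, VAMP3 and VAMP8 were 32.1%, 35.2% and 32.7%. VAMP2 shares 403 exonic bases with a protein-coding gene model on the same strand, so reads there may have been split. That model was at 21.2 TPM or less in ePP and at 36.6 to 37.5 TPM in ePP-β.

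**Figure D3:**
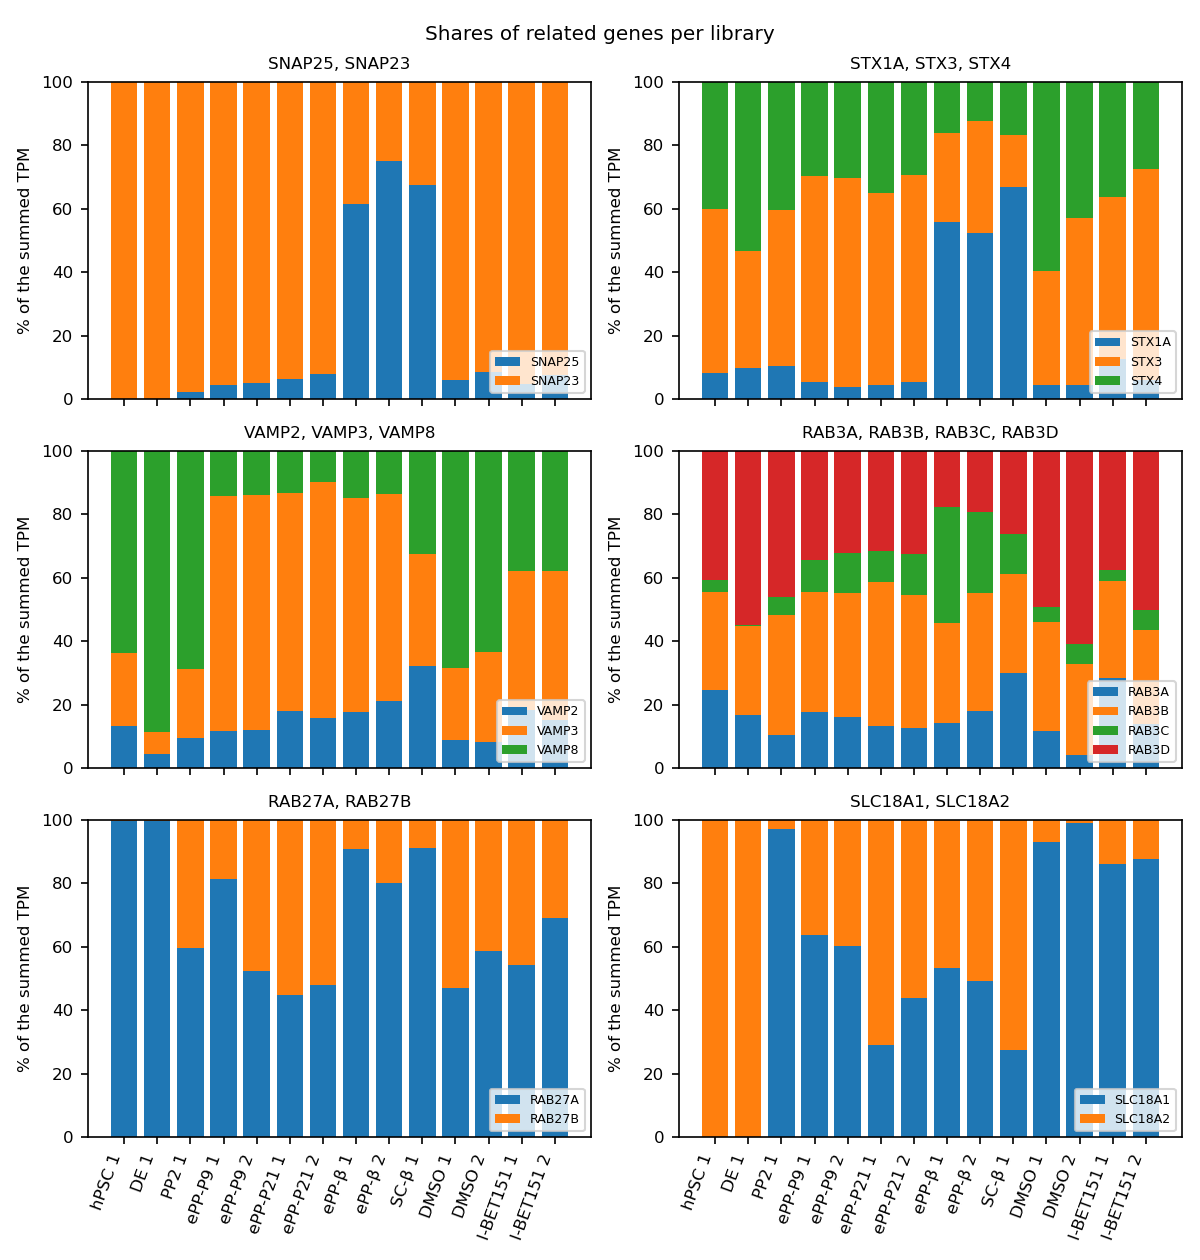
Share of each gene in the summed TPM of its group of related genes, in percent, for 6 groups of genes and all 14 libraries as stacked bars. SNAP25 and STX1A make up most of their bars in the ePP-β and SC-β libraries and a small part in the other libraries, and VAMP8 makes up 63.2% to 88.4% of the VAMP bar in hPSC, DE, PP2 and DMSO.

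Of the 4 SM and priming genes, 3 rose, and all 3 had reached 1 TPM in fewer than 2 ePP libraries. CADPS and UNC13A thus had to be higher in ePP-β, while BAIAP3 had reached 1 TPM in 1 ePP library. CADPS, which primes dense-core granules, was at 0.373, 0.454, 0.901 and 0.284 TPM in ePP and at 30.5 and 48.6 TPM in ePP-β (log2 fold change 4.73 ± 0.26, adjusted p = 4.58e-05). UNC13A, the priming protein Munc13-1, was listed at 0 in 1 ePP library and was at most 0.0425 TPM in the others, against 6.15 and 6.62 TPM in ePP-β (2.84 ± 0.14, adjusted p = 2.81e-05). BAIAP3, a Munc13 relative of dense-core vesicles, was at 0.747, 0.793, 2.14 and 0.968 TPM in ePP and at 2.53 and 4.21 TPM in ePP-β (1.03 ± 0.26, adjusted p = 0.0166). The call for BAIAP3 did not hold with median centring (0.90), quantile normalization (0.56), or without ePP-P21 replicate 2 (0.86) or ePP-β replicate 2 (0.75). At an unchanged fold it was also lost with no filter (adjusted p = 0.0797 in limma) and with all 10 replicated libraries (adjusted p = 0.164). STXBP2, the SM protein Munc18-2, was at 21.8 to 43.5 TPM in ePP and at 28.7 and 35.0 TPM in ePP-β, with a 95% interval of -0.32 to 0.32. A second protein-coding gene model shares 1846 exonic bases with STXBP2 on the same strand. That model was at 39.1 TPM or less in ePP and at 36.1 to 39.0 TPM in ePP-β, so reads may have been split between them.

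The synaptotagmins, vesicle proteins with C2 domains, and the complexins, small proteins that clamp and promote SNARE fusion, had 8 of 8 genes called higher. Of these, 7 passed the filter only through ePP-β and had to be higher, and SYT11 alone could have gone either way. SYT13 was at 0.0405 to 0.183 TPM in ePP and at 163 and 142 TPM in ePP-β (log2 fold change 7.10 ± 0.16, adjusted p = 3.76e-06). SYT4 was listed at 0 in 2 ePP libraries, was at most 0.0456 TPM in the others, and stood at 108 and 85.0 TPM in ePP-β (6.57 ± 0.17, adjusted p = 5.32e-06). SYT7, a high-affinity calcium sensor of insulin granules, was at 0.205 to 0.515 TPM in ePP and at 88.9 and 86.0 TPM in ePP-β (6.01 ± 0.15, adjusted p = 5.04e-06). SYT4 and SYT13 are atypical members with weak or no calcium binding. The 3 most abundant of the 6 listed synaptotagmins in ePP-β thus held 1 classical calcium sensor. CPLX1 was at no more than 0.0372 TPM in ePP and at 14.6 and 11.2 TPM in ePP-β (3.76 ± 0.17, adjusted p = 2.15e-05). CPLX2 was listed at 0 in 3 ePP libraries and at 0.00566 TPM in the other, and was at 4.09 and 3.78 TPM in ePP-β (2.30 ± 0.13, adjusted p = 5.08e-05). SYT5 reached 11.2 and 11.7 TPM in ePP-β from at most 0.0225 TPM, SYT11 reached 11.4 and 10.9 TPM from 1.36 to 3.07 TPM, and SYT1 reached 1.85 and 4.53 TPM from at most 0.0273 TPM. SYT1, the fast sensor of neuronal synapses, thus stayed the lowest of the 6 synaptotagmins in both ePP-β libraries.

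Rab GTPases tether granules before fusion, and 5 of the 7 genes of this role rose. RAB3C went from 2.64, 3.48, 2.59 and 4.17 TPM in ePP to 48.1 and 28.0 TPM in ePP-β (log2 fold change 3.18 ± 0.28, adjusted p = 0.000229). RAB3A went from 3.48 to 4.74 TPM in ePP to 18.7 and 19.8 TPM (1.97 ± 0.14, adjusted p = 0.000106), and RAB3B from 10.1 to 13.7 TPM to 41.8 and 40.6 TPM (1.76 ± 0.11, adjusted p = 6.49e-05). RAB3D went from 8.20 to 10.6 TPM in ePP to 23.5 and 21.1 TPM in ePP-β (1.20 ± 0.14, adjusted p = 0.000781). All 4 RAB3 genes thus rose, and the share of RAB3C in their summed TPM went from 9.92% to 12.8% in ePP to 36.4% and 25.5% in ePP-β. RAB27A, the Rab of insulin granule docking, went from 3.73 to 5.31 TPM in ePP to 20.6 and 17.6 TPM in ePP-β (1.93 ± 0.17, adjusted p = 0.000251). RAB27B was at 0.971, 3.40, 4.74 and 5.75 TPM in ePP and at 2.11 and 4.40 TPM in ePP-β, so the groups overlapped, and its 95% interval of -1.01 to 0.89 left a difference near 2-fold in either direction possible. SYTL4, the RAB27A effector granuphilin, was at 0.424 to 1.06 TPM in ePP and at 0.241 and 0.843 TPM in ePP-β and was not tested.

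Active-zone scaffolds hold vesicles near calcium channels. RIMBP2 was at 0.169 to 0.467 TPM in ePP and at 22.6 and 29.0 TPM in ePP-β (log2 fold change 4.39 ± 0.18, adjusted p = 1.66e-05). RIMS2, its binding partner on insulin granules, was at no more than 0.00223 TPM in ePP and at 0.701 and 5.34 TPM in ePP-β, so the 2 ePP-β libraries differed widely and the gene did not pass the filter. ERC2 was at no more than 0.113 TPM in any ePP or ePP-β library.

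All 8 vesicle membrane, cargo and granule genes rose, 5 of which passed the filter only through ePP-β and had to be higher, while SYP, SV2A and STMN2 had reached 1 TPM in at least 2 ePP libraries. STMN2, a microtubule regulator of neurons and neuroendocrine cells that is not itself part of the fusion machinery, was at 0.0603 and 0.107 TPM at passage 9, at 2.14 and 1.53 TPM at passage 21, and 1056 and 1073 TPM in ePP-β (log2 fold change 9.25 ± 0.13, adjusted p = 1.78e-06). PTPRN, the granule-membrane protein IA-2, was listed at 0 in 3 ePP libraries and at 0.0189 TPM in the other, and was at 67.2 and 62.1 TPM in ePP-β (6.03 ± 0.15, adjusted p = 4.89e-06). PTPRN2, its relative phogrin, was at 0.336 to 0.502 TPM in ePP and at 78.2 and 71.6 TPM in ePP-β (5.74 ± 0.15, adjusted p = 5.27e-06). For these 3 genes the ePP-β libraries were far above every ePP library. SLC18A1 and SLC18A2, the vesicular monoamine transporters VMAT1 and VMAT2, were at 0.135 to 0.273 TPM and 0.0960 to 0.532 TPM in ePP. In ePP-β they stood at 34.5 and 36.5 TPM and at 30.2 and 37.6 TPM (log2 fold changes 4.93 ± 0.15 and 4.81 ± 0.19, adjusted p = 7.8e-06 and 1.63e-05). SYP, the vesicle protein synaptophysin, was at 4.86 to 8.08 TPM in ePP and at 157 and 144 TPM in ePP-β (4.25 ± 0.17, adjusted p = 1.5e-05). SYN1, which ties vesicles to the cytoskeleton, rose by a log2 fold change of 2.42 (4.80 and 6.73 TPM in ePP-β), and SV2A, a vesicle glycoprotein, by 1.21 (21.1 and 17.6 TPM in ePP-β). PDZD8 shares 2157 exonic bases with SLC18A2 on the opposite strand, and the counting is not stated to use strand. It was at 12.5 TPM or less in ePP and at 19.1 and 19.7 TPM in ePP-β.

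Markers of other cells that use the same vesicle genes moved with these results. The 4 α-cell markers summed to 12.0 to 23.4 TPM in ePP and to 27190.5 to 28990.0 TPM in ePP-β. The 3 δ-cell markers summed to 21.4 to 53.9 TPM in ePP and to 423 to 491 TPM in ePP-β, although HHEX among them was lower. PPY and GHRL, hormone genes of other islet cells, summed to at most 0.172 TPM in ePP and to 88.7 to 107 TPM in ePP-β. The 4 enterochromaffin markers (TPH1, DDC, FEV and LMX1A) summed to 18.6 to 22.6 TPM in ePP, 984 to 1069.9 TPM in ePP-β and 480.1 TPM in SC-β. All 4 passed 1 TPM in ePP-β and SC-β, with TPH1 at 139.8 and 245 TPM in ePP-β and 37.9 TPM in SC-β. Enterochromaffin cells store serotonin through the monoamine transporters above. The neuron list of 10 genes summed to 446 to 519 TPM in ePP and to 804 to 943 TPM in ePP-β, with 3 to 5 and 6 to 7 genes at 1 TPM. TUBB3, which made up most of the sum in ePP, went the other way, from 437 to 509 TPM in ePP to 285 and 252 TPM in ePP-β, and POU4F1 was at 0.430 to 2.43 TPM in ePP and at 0.627 and 0.858 TPM in ePP-β. NEFM (468 and 382 TPM), NEFL (120.4 and 112 TPM), DCX (28.8 TPM in both) and SLC17A6 were higher in ePP-β than in any ePP library, whereas RBFOX3 stayed under 1 TPM and ELAVL4 was at 1.68 and 0.747 TPM. The part of these cell types in the rise of the vesicle genes was not tested.

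Promoter sequences are shown for the 4 genes with the largest rise that had an entry in the RefSeq-based promoter table (GRCh38.p14), because these genes moved together from near 0. Each runs 5′ to 3′ on the strand of the gene, from 250 bases before the start to 50 bases after it, and 30 of the 38 genes had an entry. Capitals mark E-boxes (CANNTG, the site class of bHLH factors such as NEUROD1), the cAMP response element TGACGTCA, and the half-sites TTCAGCACC and GGACAGCGC of RE1, the element bound by the neuronal gene repressor REST, on either strand.
SYT4 (chr18:43277441-43277740, minus strand): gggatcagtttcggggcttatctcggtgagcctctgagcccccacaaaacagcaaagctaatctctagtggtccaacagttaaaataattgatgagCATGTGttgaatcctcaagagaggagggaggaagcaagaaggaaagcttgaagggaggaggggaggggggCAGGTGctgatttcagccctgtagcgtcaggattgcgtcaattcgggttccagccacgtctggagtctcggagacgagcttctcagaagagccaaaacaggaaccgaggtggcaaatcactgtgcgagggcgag
PTPRN (chr2:219309352-219309651, minus strand): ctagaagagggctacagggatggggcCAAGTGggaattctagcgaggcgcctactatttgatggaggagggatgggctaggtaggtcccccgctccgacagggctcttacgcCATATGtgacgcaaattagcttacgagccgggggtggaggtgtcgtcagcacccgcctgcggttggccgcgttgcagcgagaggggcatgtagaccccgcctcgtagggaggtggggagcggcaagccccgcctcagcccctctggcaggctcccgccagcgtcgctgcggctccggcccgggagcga
SLC18A2 (chr10:117240864-117241163, plus strand): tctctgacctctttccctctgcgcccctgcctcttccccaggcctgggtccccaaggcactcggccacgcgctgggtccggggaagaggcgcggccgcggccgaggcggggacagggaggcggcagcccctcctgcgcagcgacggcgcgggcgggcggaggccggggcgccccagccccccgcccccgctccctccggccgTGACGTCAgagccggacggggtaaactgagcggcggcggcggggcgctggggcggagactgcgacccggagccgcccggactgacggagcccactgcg
CADPS (chr3:62875367-62875666, minus strand): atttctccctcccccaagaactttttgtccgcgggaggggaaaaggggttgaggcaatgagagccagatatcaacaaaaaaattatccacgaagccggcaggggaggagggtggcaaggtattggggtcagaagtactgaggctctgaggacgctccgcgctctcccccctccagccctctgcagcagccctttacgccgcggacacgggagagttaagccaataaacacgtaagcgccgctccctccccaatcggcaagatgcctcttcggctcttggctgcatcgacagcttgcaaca

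E-boxes were present at -154 and -84 in SYT4 and at -224 and -138 in PTPRN, with none in SLC18A2 or CADPS. They stood in 20 of 30 member promoters (66.7%), beside 68.9% of all 27305 promoters of the same length. The narrower form CAGATG, itself an E-box, stood in 7 of 30 (23.3%, beside 14.8%). A full cAMP response element lay at -48 in SLC18A2, and SYN1 held the other one among the members (2 of 30, beside 1.98% of all promoters). Of the other motifs searched on both strands, the GC box GGGCGG stood in 20 of 30 (66.7%, beside 44.6%) and the TATA box TATAAA in none (0%, beside 12.0%). The left RE1 half-site stood in 2 of 30 promoters (beside 0.403%) and the right one in 1 of 30 (beside 0.645%), in UNC13A and SYN1. Those promoters are shown for that match and were chosen after the search.
UNC13A (chr19:17688305-17688604, minus strand): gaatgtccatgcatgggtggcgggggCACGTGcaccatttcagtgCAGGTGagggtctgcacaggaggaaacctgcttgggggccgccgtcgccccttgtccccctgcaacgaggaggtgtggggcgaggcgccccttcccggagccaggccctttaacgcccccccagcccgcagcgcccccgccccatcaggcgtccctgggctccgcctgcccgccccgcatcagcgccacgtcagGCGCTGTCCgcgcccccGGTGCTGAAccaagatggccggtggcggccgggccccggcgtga
SYN1 (chrX:47619808-47620107, minus strand): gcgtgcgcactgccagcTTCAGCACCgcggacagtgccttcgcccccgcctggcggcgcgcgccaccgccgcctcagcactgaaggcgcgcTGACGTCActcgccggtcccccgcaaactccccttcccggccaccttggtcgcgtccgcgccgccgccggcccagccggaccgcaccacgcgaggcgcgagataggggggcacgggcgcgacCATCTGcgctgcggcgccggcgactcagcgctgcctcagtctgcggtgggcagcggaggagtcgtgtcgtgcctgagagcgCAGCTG

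In UNC13A both half-sites lay on the opposite strand, at -11 and at 7 after the start, with 8 bases between them. In SYN1 the left half-site lay at -233 on the strand of the gene and the cAMP response element at -159. Only exact matches were searched, and ggacagtgc, a near match to the right half-site, stands just after the left half-site in SYN1. A match gives only the letters present in these windows. UNC13A was at 14.6 TPM and SYN1 at 3.34 TPM in hPSC, and neither passed 0.653 TPM in the PP2 and ePP libraries.

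A wider list of 117 other exocytosis genes, chosen by name, was examined in the same fit. Of these, 80 passed the filter, 20 were called higher in ePP-β (25.0%), 1 was called lower and 59 were not called. Over all genes tested, 17.9% were called higher and 9.86% lower. RAB26, a Rab of secretory granules, was at no more than 0.673 TPM in ePP and at 128 and 168 TPM in ePP-β (log2 fold change 6.58 ± 0.17, adjusted p = 5.48e-06). The vesicular glutamate transporters SLC17A8 (35.5 and 49.9 TPM, log2 fold change 5.34 ± 0.19) and SLC17A6 (22.5 and 34.5 TPM, listed at 0 in every ePP library) were among the largest. SYNGR3, SV2B and DOC2B, a vesicle protein of the synaptogyrin family, a relative of SV2A and a calcium-binding C2 protein, had log2 fold changes of 3.11, 2.76 and 2.72. SCAMP4, a secretory carrier membrane protein, was the 1 gene called lower, from 77.7 to 82.2 TPM in ePP to 29.3 and 35.4 TPM in ePP-β (-1.29 ± 0.10, adjusted p = 0.000128). Of the 20 called higher, 11 had reached 1 TPM in fewer than 2 ePP libraries, so that they passed the filter through ePP-β. Among the 65 that passed through ePP libraries, 9 were higher, 1 was lower and 55 were not called. No share over all genes was counted for genes that passed in this way. With ePP-β replicate 1 or 2 left out, 12 and 9 of the list were called higher.

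SC-β, made without the expansion step, was set beside PP2 and ePP-β. These comparisons rest on 1 library for SC-β and 1 for PP2 and have no test. From PP2 to SC-β, 34 of the 38 genes passed the filter. Of these, 21 were over 2-fold higher and 3 (SNAP23, VAMP8 and RAB27B) over 2-fold lower on the TPM + 1 scale. Over all 18894 genes past the filter the shares were 12.7% and 22.1%. With median centring the counts were 23 and 1. The median difference of the 38 genes, those under the filter included, was 1.49, beside -0.37 for all genes past the filter. STMN2 went from 0.0893 to 169.8 TPM, PTPRN from 3.32 to 614 TPM and SYP from 2.81 to 268 TPM. SNAP23 fell from 79.0 to 22.5 TPM and SNAP25 went from 1.92 to 46.7 TPM.

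Beside SC-β, 36 of the 38 genes passed the filter. Both ePP-β libraries lay over 2-fold above SC-β for 6 of these and over 2-fold below it for 6. Over all 19533 genes past the filter the shares were 14.5% and 14.7%. With median centring the counts were 5 and 10. The 6 higher genes were VAMP3, CADPS, SYT1, SYT13, RAB3C and STMN2, and the 6 lower genes were UNC13A, BAIAP3, SYT5, CPLX1, CPLX2 and PTPRN. STMN2 stood at 1056 and 1073 TPM in ePP-β against 169.8 TPM in SC-β, a ratio of means of 6.27, SYT13 at 163 and 142 TPM against 52.0 TPM and RAB3C at 48.1 and 28.0 TPM against 8.55 TPM. In the other direction CPLX1 stood at 136 TPM in SC-β against 14.6 and 11.2 TPM, a ratio of 10.5, and PTPRN at 614 TPM against 67.2 and 62.1 TPM, a ratio of 9.49. CPLX2 (23.9 TPM in SC-β) and SYT5 (54.7 TPM in SC-β) were higher there than in ePP-β by ratios of 6.08 and 4.78. Both counts of 6 were close to the shares over all genes. SYT4 (88.6 TPM in SC-β), SYT11 (11.4 TPM) and RAB3A (20.7 TPM) had levels in SC-β close to those of ePP-β. ePP-β and SC-β belonged to different batches, so batch and protocol cannot be told apart. The 5 mesenchyme markers summed to 2253 TPM in SC-β and to 32.1 to 41.6 TPM in ePP-β, and the 4 α-cell markers to 99251 TPM and to 27190.5 to 28990.0 TPM. Their part in these differences was not tested.

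**Figure D4:**
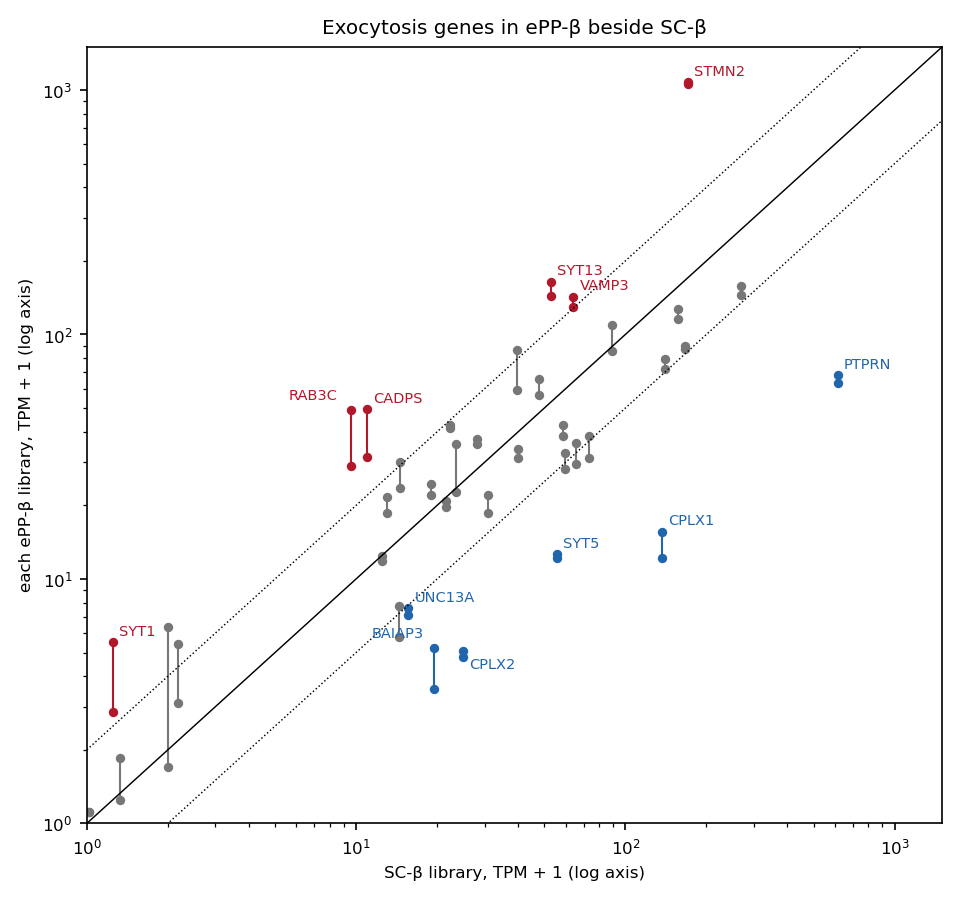
TPM + 1 of the 38 genes in each of the 2 ePP-β libraries (joined points, vertical log axis) against the SC-β library (horizontal log axis). The solid line marks equal values and the dotted lines 2-fold differences. Genes named in red had both ePP-β libraries over 2-fold above SC-β, and genes named in blue over 2-fold below it, with STMN2 and PTPRN at opposite ends.

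Along the early stages the median of the 38 genes stayed close to that of all genes. In hPSC, 27 of the 38 genes reached 1 TPM, among them SV2A (34.7 TPM), SYT5 (25.3 TPM), PTPRN (21.2 TPM), UNC13A (14.6 TPM) and SYT7 (10.9 TPM). From hPSC to DE, 28 of the 38 genes passed the filter. Of these, 8 were over 2-fold lower and 1 (VAMP8, 99.0 to 475 TPM) was over 2-fold higher. Over all 17807 genes past the filter the shares were 16.1% and 10.8%. With median centring the counts were 8 and 2. SYT5 went from 25.3 to 0.240 TPM and PTPRN from 21.2 to 0.991 TPM. From DE to PP2, 10 of the 32 genes past the filter were higher and 4 lower, beside 27.2% and 9.83% of 18578 genes. With median centring the counts were 7 and 7. SYT13 went from 0.438 to 9.80 TPM, SYT4 from 0.125 to 4.11 TPM and RAB27B from 0.00854 to 4.64 TPM, while VAMP8 went from 475 to 152 TPM. The median over the 38 genes, those under the filter included, was -0.10 from hPSC to DE and 0.33 from DE to PP2. Over all genes past the filter it was -0.04 and 0.38.

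Expanded progenitors stood below PP2 for part of the list. Of the 38 genes, 30 passed the filter. In all 4 ePP libraries 11 of these were over 2-fold lower than in PP2 and 0 were over 2-fold higher. Over all 19170 genes past the filter the shares were 19.5% and 4.81%. With median centring the counts were 10 and 3. VAMP8 was at 16.0 to 20.3 TPM in ePP against 152 TPM in PP2, BAIAP3 at 0.747 to 2.14 TPM against 19.1 TPM, SYT13 at 0.0405 to 0.183 TPM against 9.80 TPM and SYT4 at no more than 0.0456 TPM against 4.11 TPM. CPLX1 was at no more than 0.0372 TPM in ePP, where hPSC, DE and PP2 each held 5.97 to 6.04 TPM. Batch and group cannot be told apart here, since PP2 was in batch 1 and the ePPs in batch 2. The 5 mesenchyme markers summed to 1303 TPM in PP2 and to 38.7 to 60.0 TPM in ePP, and their part in these differences was not tested.

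Passage number was compared within batch 2, to ask whether the program drifts over expansion. Of the 19 genes that passed the filter in ePP-P21 against ePP-P9, 0 were called in limma, and 7 had an unadjusted p under 0.05, as had 23.0% of all genes tested. Of all 15822 genes tested, 1.07% were called higher and 0.0569% lower. The largest differences were STMN2 (0.0603 and 0.107 TPM at passage 9, 2.14 and 1.53 TPM at passage 21, log2 fold change 1.38 ± 0.26, adjusted p = 0.0684) and RAB27B (0.971 and 3.40 TPM, then 4.74 and 5.75 TPM, 1.08 ± 0.40, adjusted p = 0.195). STMN2 passed the filter only through the passage 21 libraries, so it had to be higher there. The passages were also apart for RAB27B, but its 2 values at passage 9 differed more than those at passage 21. With ePP-P9 replicate 2 left out, 1 gene (RAB27B) was called higher. STXBP2 was at 21.8 and 26.8 TPM at passage 9 and at 39.5 and 43.5 TPM at passage 21 (0.75 ± 0.14, adjusted p = 0.0628). The 117 other exocytosis genes gave 0 calls among 65 tested, with 12 at an unadjusted p under 0.05.

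I-BET151 was compared with DMSO within batch 3, to ask which genes a BET inhibitor moves in progenitors outside the ePP culture. Of the 23 genes that passed the filter, 0 were called in limma, and 5 had an unadjusted p under 0.05, as had 15.2% of all genes tested. Of all 16687 genes tested, 0.00599% were called higher (1 gene) and 0.204% lower. VAMP8 (chr2:85561562-85582031) was at 184 and 194 TPM with DMSO and at 54.7 and 68.4 TPM with I-BET151, a log2 difference of -1.61 ± 0.31 (SE, adjusted p = 0.112). SYT4 was at 1.79 and 2.06 TPM with DMSO and at 0.126 and 0.191 TPM with I-BET151 (-1.33 ± 0.27, adjusted p = 0.122). SLC18A1 was at 6.25 and 2.17 TPM and then at 0.857 and 0.329 TPM (-1.61 ± 0.49, adjusted p = 0.226), and CPLX1 at 6.14 and 2.21 TPM and then at 0.406 and 1.15 TPM (-1.46 ± 0.50, adjusted p = 0.271). SYT4 and SLC18A1 passed the filter only through the DMSO libraries, so they had to be lower with I-BET151 and could not overlap. VAMP8 and CPLX1 did not overlap between the treatments either, but how often this held over all genes was not counted. The 2 DMSO libraries differed by more than 2-fold for SLC18A1 and CPLX1. SYP was at 1.02 and 0.510 TPM with DMSO and at 6.28 and 2.34 TPM with I-BET151 (1.50 ± 0.47, adjusted p = 0.236). RAB3A (3.20 and 0.768 TPM, then 8.20 and 2.47 TPM) overlapped between the treatments, and STXBP2 (103 and 45.3 TPM, then 44.3 and 18.2 TPM) nearly did, with replicate 1 above replicate 2 in both groups. With I-BET151 replicate 2 left out, 2 genes were called higher (SYP and BAIAP3). The tested intervals were wide, with standard errors of 0.27 to 0.72 on the log2 scale, so moderate differences were not detectable in this fit. The counts depend on how replicate numbers are treated. The differences between replicates 2 and 1 correlated at 0.68 between DMSO and I-BET151. With replicate number as a block, SYP and RAB3A were called higher and VAMP8, STXBP2, SYT4 and SLC18A1 lower, beside 828 and 1466 of all genes. The labels do not say whether same-numbered libraries form pairs. The 117 other exocytosis genes gave 0 calls among 76 tested, with 11 at an unadjusted p under 0.05. The enterochromaffin list summed to 28.8 to 62.8 TPM with DMSO and to 7.74 to 12.2 TPM with I-BET151, and the mesenchyme list to 81.0 to 182 TPM and to 35.7 to 76.8 TPM. The acinar list of 6 genes summed to 25.1 to 33.1 TPM with DMSO and to 4.11 to 9.29 TPM with I-BET151, with PNLIP listed at 0 in all 4 libraries, and the α-cell list to 1049 to 1220.4 TPM and to 60.7 to 65.4 TPM. Their part in these differences was not tested.

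**Figure D5:**
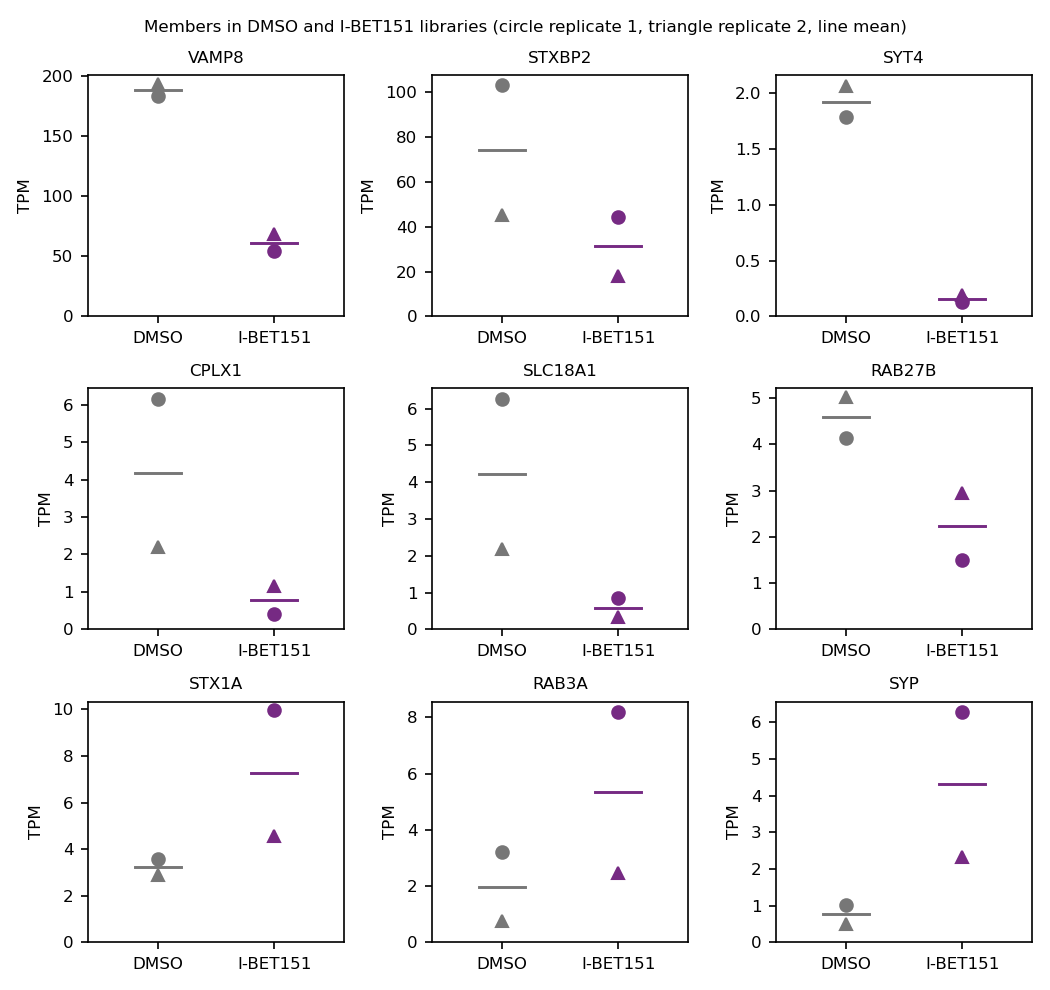
TPM of 9 of the 38 genes in the DMSO and I-BET151 libraries, on linear axes from 0, with circles for replicate 1, triangles for replicate 2 and a bar at the mean of the 2 libraries. VAMP8, SYT4, CPLX1, SLC18A1 and RAB27B lie lower with I-BET151 in both libraries, STX1A lies higher, and RAB3A and STXBP2 overlap or nearly touch between the groups.

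VAMP8 varied more across the series than VAMP2 and VAMP3, from 16.0 TPM in ePP-P21 to 475 TPM in DE. It took 9.74% to 14.3% of the summed TPM of the 3 VAMP genes in the ePP libraries, 68.7% in PP2, 68.4% and 63.2% with DMSO, and 38.0% and 37.8% with I-BET151. ePPs were grown with I-BET151 and PP2 cells were not, but the groups differ in batch, medium and passage, so no comparison across them was tested.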

How the data were processed

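Per the labels and the study's methods, the authors aligned paired-end reads to GRCh38 (hg38) with HISAT2 2.1.0, assembled transcripts with StringTie and deposited gene values in TPM, and no scaling between libraries was described. Which annotation release was used, and whether strand was counted, is not given in the sources used here. The authors' own tests used DESeq2, which TPM cannot enter. Symbols and positions came from GENCODE release 44 (60370 of 60624 identifiers matched). The listed TPM summed to 908685 to 985497 per library. Depth is unknown, so no counting interval is given.

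A fit took genes that reached 1 TPM in 2 or more of its libraries, on log2(TPM + 1), which understates changes of low genes. Tests used limma 3.58.1 (R 4.3.3; linear model, contrast, moderated variance with a trend), two-sided, within 1 batch, with Benjamini-Hochberg adjustment over all genes tested. The ePP level was the mean of both passage groups. Comparisons with 1 library a group had no test and asked for at least 1 TPM in at least 1 library. The code was tested on simulated data. Values of every library were given for called genes (up to 4 per role and direction by size) and for related genes, and for up to 6 other exocytosis genes per direction whose higher group averaged 5 TPM or more. The 38 genes, the other lists and the tests were chosen with earlier results of these data known. Alternatives were pseudocounts of 0.1 and 0.01, no filter, a filter of 5 TPM, median centring, quantile normalization, all 10 replicated libraries, each library left out, a replicate block and the adjusted p alone. A single marker of the neuron list is not reported here by name.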

Additional observations from a re-analysis of the deposited data

Results flagged for a closer look

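VAMP8 was higher in both ePP-β libraries (31.7 and 27.2 TPM) than in every ePP library (16.0 to 20.3 TPM), a log2 difference of 0.63, and lower in SC-β (58.5 TPM) than in PP2 (152 TPM), a log2 difference of -1.36. The values thus lay on opposite sides in the 2 comparisons, and the first difference was under the fold threshold. The difference between the effects was not tested, since PP2 and SC-β had 1 library each.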

How the results depend on the processing

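The 27 genes called higher in ePP-β numbered 23 to 30 and the 1 called lower stayed at 1 under every setting that kept all libraries. Leaving out 1 library gave 11 to 27 and 1 for the 38 genes, and 9 to 22 higher and 1 to 4 lower for the other exocytosis genes (20 and 1 otherwise). With the adjusted p alone the other genes gave 41 and 12, and the lower ones were 6 with median centring and 3 with quantile normalization. BAIAP3 was the 1 gene whose call was lost under any setting in which it was tested. Centring and quantile normalization moved the median of all genes in ePP-β from -0.03 to -0.17 and -0.19, and in ePP-P21 centring moved it from 0.13 to -0.07. For ePP-P21, leaving out 1 library gave 0 to 1 higher in each list and 0 lower. For I-BET151 it gave 0 to 2 higher and 0 lower among the 38 genes, and 0 to 1 and 0 to 4 among the other genes. All 10 libraries in 1 fit gave 1 higher and 4 lower, and 2 and 4 among the other genes.

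With the replicate number as a block, I-BET151 gave 2 higher (SYP, RAB3A) and 4 lower (VAMP8, STXBP2, SYT4, SLC18A1) of the 38 genes, and 2 and 5 of the other genes. SYT4 and SLC18A1 passed the filter only through DMSO and had to be lower. The differences between replicates 2 and 1 correlated at 0.68 between DMSO and I-BET151 and at -0.01 to 0.04 within batch 2. With 2 libraries a group the numbers are not taken as pairs, and the block left the counts of called exocytosis genes in the other comparisons unchanged. Over all genes it gave 64 higher and 2 lower in ePP-P21 (169 and 9 without it) and 828 and 1466 with I-BET151 (1 and 34 without it).

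Without replicates, 2 genes were higher from hPSC to DE with a pseudocount of 0.1 or centring, and 5 lower with a filter of 5 TPM. From DE to PP2, 7 were lower with centring, and 3 higher and 1 lower with the filter. From PP2 to SC-β, 1 was lower with centring. Beside SC-β, 10 were lower with centring. Beside PP2, 1 was higher with a pseudocount of 0.1, 3 with centring, and 6 were lower with the filter. Over all genes, called ones ranged from 1623 to 3571 higher and 1553 to 2866 lower in ePP-β, 0 to 453 and 0 to 25 in ePP-P21, and 0 to 828 and 0 to 1466 with I-BET151. These changes have causes that were not tested, except that a higher filter and fewer libraries test fewer genes. Unknown depth and 2 libraries a group limit every value.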
